A study of Mus musculus with 17 samples.

Results

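Transcripts of 9 genes that encode Polycomb proteins and other histone-modifying regulators were followed in haematopoietic stem cells (HSCs), the marrow cells that replenish all blood lineages. The genes were Bmi1, Ezh1, Ezh2, Eed, Suz12, Asxl1, Kdm6b, Kmt2a and Brpf1, picked by their GRCm38 gene symbols from the 54838 Ensembl genes in the deposited count files. Each symbol matched 1 gene, and all 9 passed the filter on low counts, as did 24523 genes in all. The rule used symbols and no measured value, but the members were chosen with earlier results of these data known.

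Polycomb proteins keep genes silent by marking histones. Polycomb repressive complex 2 (PRC2), built from a catalytic subunit, EZH2 or EZH1, with EED and SUZ12, methylates lysine 27 of histone H3, and the PRC1 complex, which contains BMI1, places ubiquitin on histone H2A. KDM6B (JMJD3) is a demethylase that takes the lysine 27 mark off again, and ASXL1 is a cofactor of the deubiquitinase BAP1 that removes the H2A mark. KMT2A (MLL1) methylates lysine 4 of histone H3 at active genes such as the Hox genes, and BRPF1 is a scaffold of the MOZ, MORF and HBO1 histone acetyltransferase complexes. BMI1 is known as a factor of HSC self-renewal, loss of BRPF1 in mice causes failure of fetal HSCs, and ASXL1 is often mutated in human clonal haematopoiesis.

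RNA was sequenced in bulk from HSCs of C57BL/6 Jrj mice, sorted by flow cytometry as CD150+ CD48- cells within the lineage-negative, Sca1+ and cKit+ marrow. The 17 libraries formed 4 groups by their labels: 5 from old mice given Mito-Q, 3 from old control mice, 5 from young mice given CCCP and 4 from young control mice. Old mice were over 18 months of age and young mice 8 to 12 weeks. Mito-Q, an antioxidant that accumulates in mitochondria, was injected into the peritoneum at 2 mg/kg on 5 consecutive days, and CCCP, an uncoupler of mitochondrial respiration, was injected there 1 time at 0.3 mg/kg. The labels name no engineered allele. Not stated in the labels were the injections of the controls, the time between treatment and sorting, and whether libraries were from different mice, so p-values measure the spread between libraries, which may be technical.

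Gene totals ranged from 5649611 to 8120443 counts per library, and reads assigned to no gene made up between 22.2% and 71.7% of gene plus unassigned reads. Young CCCP 3, old control 1 and young control 3 stood apart, with median Spearman correlations to the other libraries of 0.682, 0.799 and 0.803, against 0.828 to 0.863 elsewhere. Sort markers were present: the summed level of 6 HSC genes averaged 3009, 2687, 2971 and 3134 CPM (counts scaled to library size) in old Mito-Q, old control, young CCCP and young control HSCs. The sum was 1434 CPM in young CCCP 3 and 2041 CPM in young control 3. Similar sums hid differences between genes. In old control versus young control HSCs, 3 of the 6 were higher and 2 lower at an unadjusted p below 0.05 in edgeR, and 0 were called. Of all genes tested, 6.77% were higher and 7.45% lower by that limit. The gene for the excluded marker CD48 was at 0 counts in 7 of the 17 libraries and reached 161 counts in young CCCP 4. Flt3, a receptor of progenitors outside the gate, averaged 11.1 ± 2.2 CPM in old Mito-Q, 10.4 ± 12 CPM in old control, 57.3 ± 14.1 CPM in young CCCP and 102 ± 28.1 CPM in young control HSCs. Markers of neutrophils, summed over 9 genes, spanned 982 to 13590 CPM in old Mito-Q, 1066 to 2371 CPM in old control, 735 to 15629 CPM in young CCCP and 399 to 2098 CPM in young control libraries. Of these 9, Ctsg was at 0 counts in old control 1 and young control 3 and none was at 0 elsewhere. The part of these markers in the results below was not tested.

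Per kilobase of exon, Eed, with 16.1 CPM per kb averaged over all libraries, Bmi1 with 15.8, Ezh1 with 14.4 and Kmt2a with 13.3 formed the upper part of the order. Ezh2 with 8.84, Asxl1 with 7.74, Suz12 with 7.55 and Brpf1 with 6.61 CPM per kb followed, and Kdm6b was lowest at 4.58 CPM per kb. No step between neighbours in this order was larger than the standard deviation over libraries of either gene, which lay between 2.88 CPM per kb for Brpf1 and 6.25 CPM per kb for Bmi1. The widest relative ranges belonged to Brpf1, 11.8-fold between old Mito-Q 3 and old control 3, to Ezh2, 11.1-fold between young CCCP 3 and old Mito-Q 5, and to Kdm6b, 9.13-fold between young control 3 and young CCCP 4. Raw counts behind these values were between 37 and 2481 per library.

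**Figure D1:**
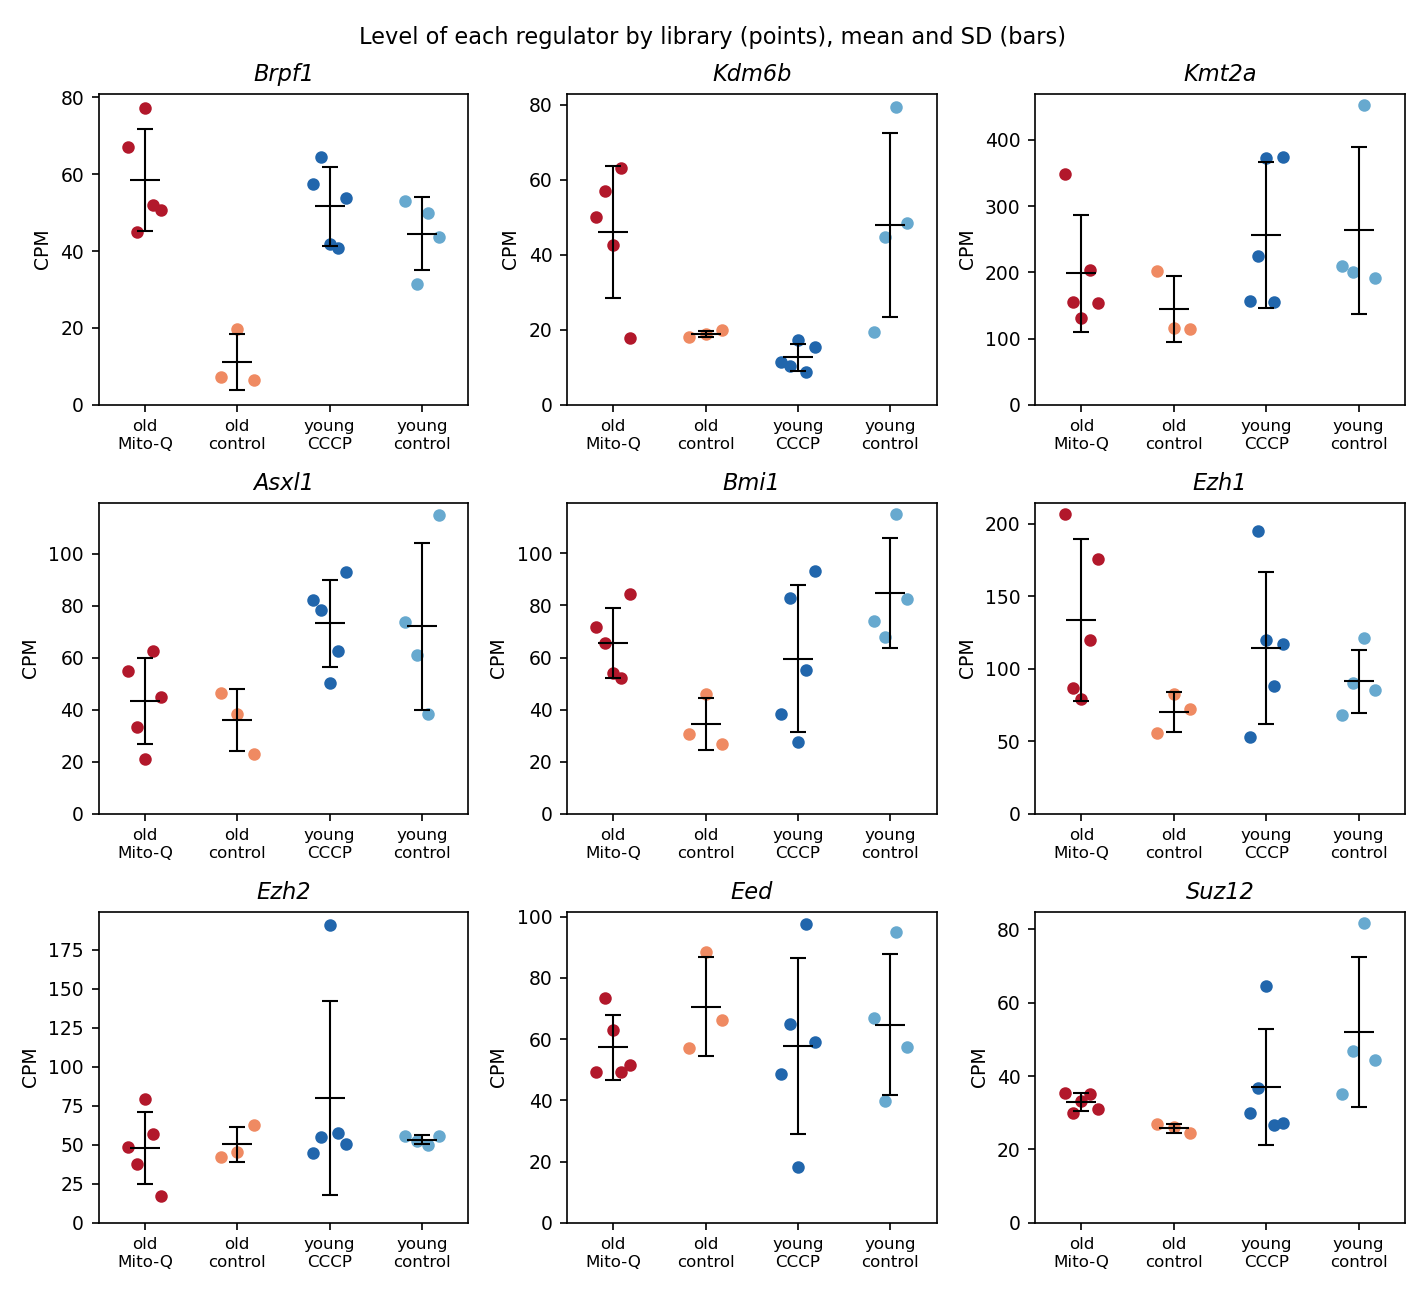
Level of each of the 9 regulators in every library (CPM, vertical axes from 0). Points are libraries and horizontal lines are group means, for old Mito-Q (n = 5), old control (n = 3), young CCCP (n = 5) and young control (n = 4). Brpf1 was at 6.54 to 19.6 CPM in the 3 old control libraries and at 31.5 CPM or more in all others, and Kdm6b was at 8.69 to 17.3 CPM in the 5 young CCCP libraries.

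Brpf1 lies on the plus strand of chromosome 6 (GRCm38, chr6:113307137-113324860), and it is the regulator for which calls were made in 2 comparisons. Its promoter is shown with those of the PRC2 genes Suz12 (chr11:79993106-80034123, plus strand) and Ezh2 (chr6:47530139-47595341, minus strand). Brpf1 was low in all old control libraries. Suz12 did not overlap between old and young controls but was not called, and Ezh2 had similar means in both. Whether these genes differed from each other in their response was not tested. The sequences are from RefSeq (GRCm38.p6), run 5′ to 3′ on the gene's strand from 250 bases before to 50 bases after the start, and capitals mark letters that match a searched motif.
Brpf1 promoter (chr6:113306887-113307186, plus strand): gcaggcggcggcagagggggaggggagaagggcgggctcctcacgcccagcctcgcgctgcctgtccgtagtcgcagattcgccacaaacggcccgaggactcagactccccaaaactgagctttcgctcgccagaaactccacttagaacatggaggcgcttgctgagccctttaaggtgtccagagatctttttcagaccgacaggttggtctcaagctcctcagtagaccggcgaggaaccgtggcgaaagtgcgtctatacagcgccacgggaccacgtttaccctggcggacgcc
Suz12 promoter (chr11:79992856-79993155, plus strand): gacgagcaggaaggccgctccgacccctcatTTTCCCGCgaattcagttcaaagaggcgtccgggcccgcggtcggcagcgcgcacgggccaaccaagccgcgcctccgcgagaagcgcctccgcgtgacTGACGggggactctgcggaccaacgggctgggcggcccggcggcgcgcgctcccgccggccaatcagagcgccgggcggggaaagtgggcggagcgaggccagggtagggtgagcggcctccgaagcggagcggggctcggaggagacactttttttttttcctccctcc
Ezh2 promoter (chr6:47594981-47595280, minus strand): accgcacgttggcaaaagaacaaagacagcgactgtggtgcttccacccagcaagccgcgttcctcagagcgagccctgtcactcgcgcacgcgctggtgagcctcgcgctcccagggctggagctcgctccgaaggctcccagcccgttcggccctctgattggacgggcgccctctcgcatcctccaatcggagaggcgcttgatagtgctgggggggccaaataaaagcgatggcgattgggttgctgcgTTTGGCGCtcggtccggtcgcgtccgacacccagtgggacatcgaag

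In these windows the Brpf1 promoter held 25 CpG dinucleotides, the Suz12 promoter 41 and the Ezh2 promoter 31, against a median of 7 over 32851 promoters of the same length. Motifs of 8 kinds were searched on both strands: TGACGTCA and its part TGACG (cAMP response element), TGANTCA (AP-1), GCGTGGGCG (EGR), TTTCCCGC and TTTGGCGC (E2F), the CArG box and the NF-kB site. The Suz12 promoter held TTTCCCGC, which 1.07% of all promoters hold, with its first base at -219, and TGACG, which 20.8% hold, at -120. The Ezh2 promoter held TTTGGCGC, found in 0.514% of promoters, starting at base 3 after the start site. Among the other promoters matched, Asxl1 held an NF-kB site at -156, as 8.46% of promoters do, while Brpf1, Bmi1, Ezh1, Eed and Kmt2a held none of the 8. TGACGTCA, TGANTCA, GCGTGGGCG and the CArG box, which stand in 1.79%, 7.81%, 0.612% and 1.63% of all promoters, were in none of the 8 promoters matched. These matches describe letters in a short window only.

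The first comparison asked which regulators differ with age in control animals. Brpf1, the acetyltransferase scaffold, was measured at 7.14, 19.6 and 6.54 CPM in the 3 old control libraries, against 53.1, 31.5, 49.8 and 43.6 CPM in the 4 young control libraries. All old control values lay below all young control values. The mean fell to 11.1 ± 7.38 CPM in old control HSCs, against 44.5 ± 9.51 CPM in young control HSCs (SD, n = 3 and 4). The fitted log2 fold change was -2.01 with a standard error (SE) of 0.43 (adjusted p = 0.012, edgeR quasi-likelihood test with Benjamini-Hochberg adjustment over all genes tested). At an adjusted p below 0.05, the threshold used for every call, 1 of the 9 regulators was called lower and 0 higher (0 higher also at an unadjusted p below 0.05 and by DESeq2 and limma-voom), while 1.17% of all genes tested were called lower and 0.522% higher. Without old control 1 the log2 fold change of Brpf1 was -1.72 with an adjusted p of 0.0559, without old control 3 it was -1.74 with an adjusted p of 0.185, and without old control 2, the highest of that group, it was -2.73 with an adjusted p of 0.00524. Without young control 3 and young CCCP 3 together it was -1.95 and called. The call was also missed in a fit of these groups alone, with an adjusted p of 0.116, and by limma-voom, with an adjusted p of 0.0594.

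Bmi1, the PRC1 subunit, had 30.7, 45.9 and 26.9 CPM in old control HSCs, against 73.9, 67.7, 115 and 82.5 CPM in young control HSCs. These groups did not overlap either, but the fitted log2 fold change of -1.30 (SE 0.41) had an adjusted p of 0.115 in edgeR. DESeq2, run as an alternative, gave Bmi1 an adjusted p of 0.0227. Suz12, the PRC2 subunit needed for the stability of the complex, was tightly grouped in old control HSCs at 26.8, 26.1 and 24.4 CPM, against 35, 46.9, 81.8 and 44.3 CPM in young control HSCs. Its log2 fold change was -1.01 (SE 0.41, adjusted p = 0.26 in edgeR). With Brpf1, this made 3 of the 9 regulators whose old control libraries all lay below the young control libraries, against 6.5% of all genes tested.

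The other core PRC2 genes were not called between the old and young controls. Ezh2, the catalytic subunit of dividing cells, averaged 50.3 ± 11.1 CPM in old control and 53.4 ± 2.85 CPM in young control HSCs, a log2 difference of -0.09 (SE 0.48). Eed, which reads the methyl mark, averaged 70.6 ± 16.2 CPM in old control and 64.7 ± 23.1 CPM in young control HSCs (0.13, SE 0.42), and Ezh1, the catalytic subunit of resting cells, 70.1 ± 13.7 and 91.2 ± 21.8 CPM (-0.38, SE 0.39). Their groups overlapped, and adjusted p-values were between 0.752 and 0.969 in edgeR.

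Asxl1, Kdm6b and Kmt2a were not called, and their groups overlapped. Asxl1 had 46.5, 38.5 and 23 CPM in old control HSCs, against 73.6, 61, 38.5 and 115 CPM in young control HSCs (adjusted p = 0.277 in edgeR). Kdm6b, the lysine 27 demethylase, had 18.1, 18.9 and 19.8 CPM in old control HSCs, against 19.3, 44.6, 79.4 and 48.3 CPM in young control HSCs (-1.34, SE 0.50, adjusted p = 0.207 in edgeR). Kmt2a, the largest of these genes, averaged 144 ± 50.3 CPM in old control and 263 ± 126 CPM in young control HSCs (-0.87, SE 0.41, adjusted p = 0.342 in edgeR), and without young control 3, which alone held 452 CPM, the log2 fold change was -0.50. In all, 6 of the 9 regulators were lower in old control HSCs at an unadjusted p below 0.05, namely Bmi1, Suz12, Asxl1, Kdm6b, Kmt2a and Brpf1, against 7.45% of all genes tested. Flt3, a marker of cells outside the gate, was called lower in old control HSCs (log2 fold change -3.27, adjusted p = 0.00372 in edgeR). The sum of Cd48, Flt3 and Il7r was 1.59 to 30.7 CPM in old control and 72.3 to 130 CPM in young control libraries. Most of this sum was Flt3, with 45.9 CPM over all libraries, against 4.56 CPM for Cd48. Of the 3 genes, 2 had negative and 1 a positive log2 fold change, and only 1 had an unadjusted p below 0.05. Of the 9 neutrophil markers 1 was called higher, the protease gene Prtn3, with 1015 ± 492 CPM in old control and 216 ± 13.4 CPM in young control HSCs (2.23, adjusted p = 0.00017 in edgeR). In bulk samples, fewer cells with a transcript and less of it per cell cannot be told apart.

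**Figure D2:**
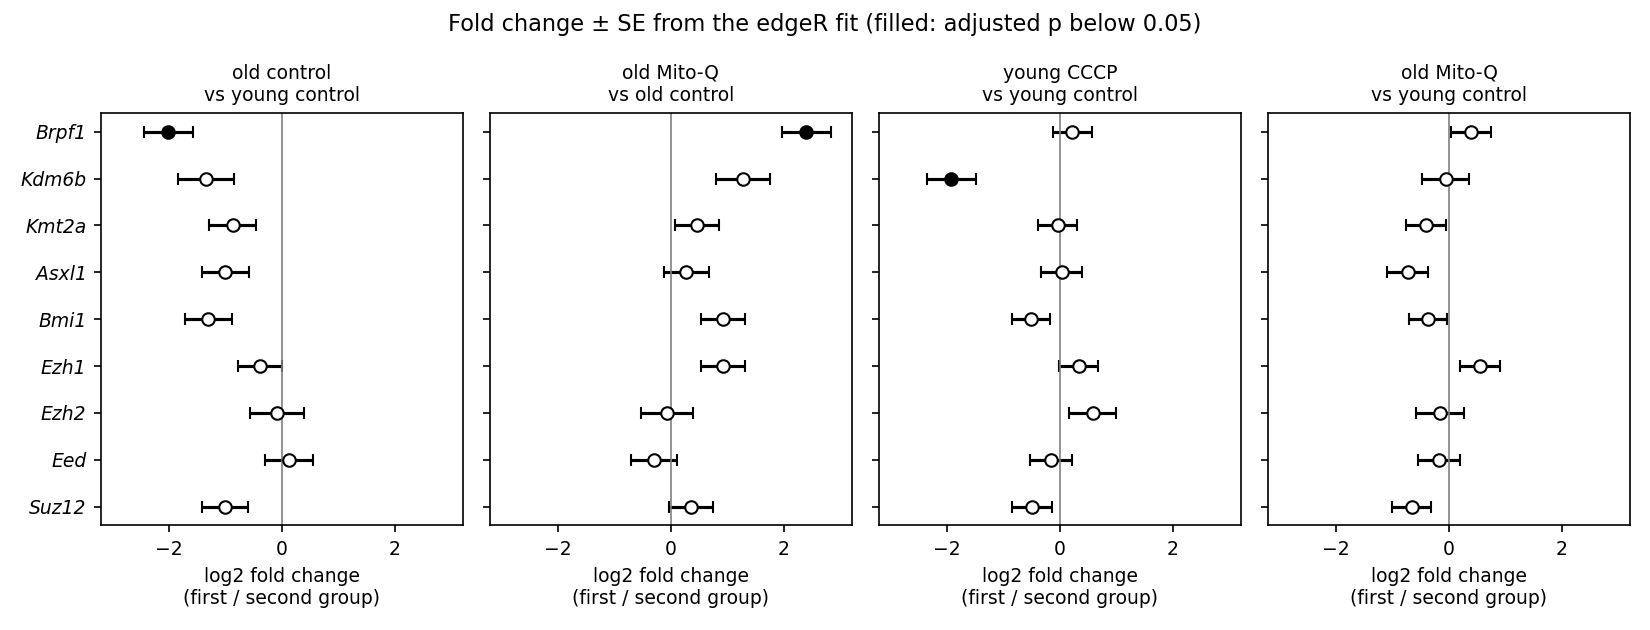
Fitted log2 fold change of each regulator, first over second group, in the 4 comparisons. Points are edgeR estimates and bars are 1 SE, and filled points have an adjusted p below 0.05. Brpf1 is filled at -2.01 in old control versus young control and at 2.40 in old Mito-Q versus old control, and Kdm6b at -1.92 in young CCCP versus young control.

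A wider list of 133 genes of Polycomb complexes, MLL and SET1 complexes, acetyltransferases, demethylases, other methyltransferases and deacetylases, of which 132 were tested, gave 6 genes called lower and 0 called higher in old control HSCs (1 higher at an unadjusted p below 0.05, and 0 by DESeq2 and limma-voom). Called lower were 1.17% of all genes tested and 2.79% of protein-coding genes with more than 6 kb of exon. Besides Brpf1 the 6 genes of the list were Jmjd1c, a JmjC-domain protein of the KDM3 family, Kat7, which encodes the HBO1 acetyltransferase that works with BRPF proteins, Kdm6a, the other lysine 27 demethylase, Usp7, a deubiquitinase found with PRC1, and Setd7, a methyltransferase. Jmjd1c averaged 60.9 ± 5.45 CPM in old control and 470 ± 196 CPM in young control HSCs (SD, n = 3 and 4), with a log2 difference of -2.95 (SE 0.38, adjusted p = 3.57e-05 in edgeR). Kat7 averaged 58.2 ± 11.2 CPM in old control and 225 ± 25.7 CPM in young control HSCs, with a log2 difference of -1.95 (SE 0.39, adjusted p = 0.00677 in edgeR).

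Kdm6a averaged 26 ± 7.07 CPM in old control and 84.5 ± 34.2 CPM in young control HSCs (log2 fold change -1.70, adjusted p = 0.0246 in edgeR). Usp7, at 81.1 ± 24.8 and 187 ± 26.6 CPM (-1.20, adjusted p = 0.0325), and Setd7, at 33.3 ± 7.11 and 94.3 ± 23.6 CPM (-1.50, adjusted p = 0.0395), were called by a narrow margin. Jmjd1c was called in all 7 fits that each left out 1 old or young control library, Kat7 in 6, Kdm6a in 3, and Usp7 and Setd7 in 2 each. Kat7 was lost without old control 3 (adjusted p = 0.0963) and Kdm6a without young control 1 or any 1 old control library (adjusted p from 0.0783 to 0.183). Usp7 was lost without young control 1, 2 or 4, old control 2 or old control 3 (0.0544 to 0.329), and Setd7 without young control 1 or 4 or any 1 old control library (0.0622 to 0.267). Of the wider list, 1 gene was called without old control 3, 3 without young control 1 or old control 2, and 8 without young control 3. Under 11 other settings Jmjd1c and Kat7 were called in all, Kdm6a in 9, Usp7 in 6 and Setd7 in 5.

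By family, all 19 histone lysine demethylases had negative log2 fold changes, with a median of -0.97, while PRC1 genes had a median of -0.43, PRC2 genes -0.45, genes of the BAP1 deubiquitinase -0.66, MLL and SET1 genes -0.28, and BRPF and MYST genes -0.39. The median over all genes tested was 0.16, and over protein-coding genes with more than 6 kb of exon it was -0.25. Of the 19 demethylases, 2 were called lower, Jmjd1c and Kdm6a, against 1.17% of all genes tested. Of the 2 most abundant genes of each family, Usp7, Kat7 and Jmjd1c were called lower, as given above. The others were not called. Besides Kmt2a, Rbbp7 and Rbbp4 of PRC2 had log2 fold changes of -0.20 and -0.43, Pcgf5 of PRC1 -0.93, Ogt and Bap1 0.13 and -0.61, Kmt2d -0.65, Kat6a -0.58, Kdm5a -0.97, Ash1l and Nsd1 -0.49 and -0.36, and Hdac2 and Hdac3 -0.32 and -0.39.

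Exon length moved with these values. The wider list had a median exon length of 6.82 kb, against 4.27 kb for 16730 protein-coding genes tested. Protein-coding genes with more than 6 kb of exon had a median log2 fold change of -0.25 in old control versus young control HSCs, against 0.52 for genes of up to 3 kb, and 15.8% of the longer genes were lower at an unadjusted p below 0.05. Within the class over 6 kb, the 72 genes of the wider list had a median of -0.60. Of the 9 regulators, 6 were in that class and 3, Bmi1, Eed and Suz12, had between 3 and 6 kb. The part of length in the differences was not tested. Without old control 1 the median over all genes was -0.35 and that of the wider list -0.62, and 404 genes were called higher and 280 lower, against 128 and 287 with all libraries.

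**Figure D3:**
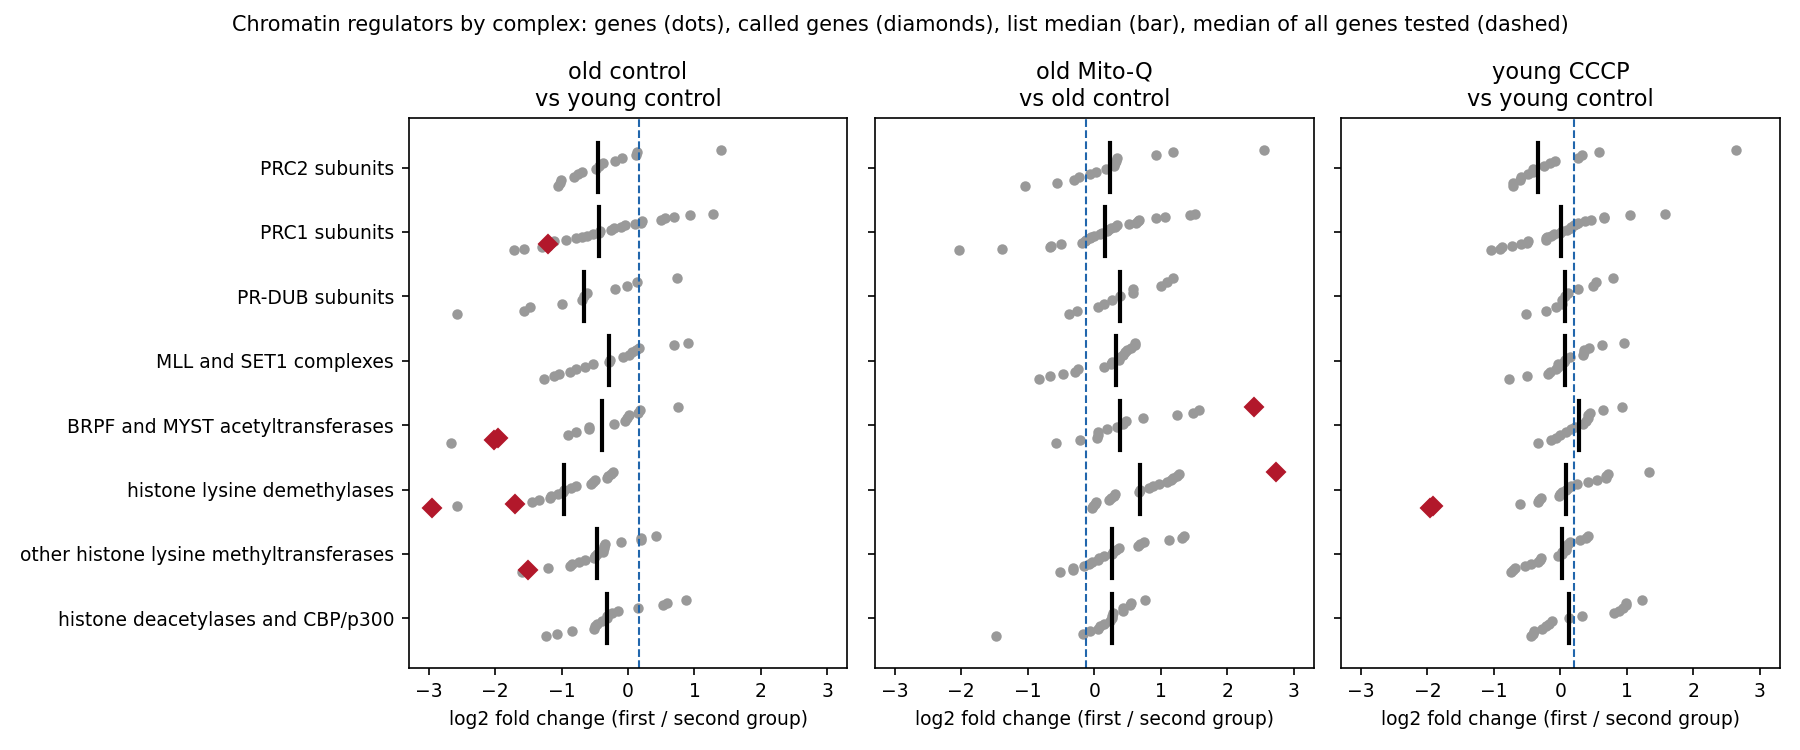
Log2 fold change of the tested genes of each family of histone regulators, from the edgeR fit, in every comparison except old Mito-Q versus young control. Grey points are genes not called and red diamonds are genes called. Short lines are family medians, and the dashed blue line is the median of all genes tested. In old control versus young control HSCs the demethylases lie lowest, with a median of -0.97.

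The second comparison asked what 5 days of Mito-Q did in old mice, and it shares the old control libraries with the first. Brpf1 measured 67.1, 45, 77.3, 52.1 and 50.7 CPM in old Mito-Q HSCs, against 7.14, 19.6 and 6.54 CPM in old control HSCs. Every Mito-Q library was above every old control library. The mean rose to 58.4 ± 13.4 CPM in old Mito-Q HSCs, against 11.1 ± 7.38 CPM in old control HSCs (SD, n = 5 and 3), with a log2 difference of 2.40 (SE 0.43, adjusted p = 0.00287 in edgeR). It was the 1 of 9 regulators called higher, also by DESeq2 and limma-voom, and 0 were lower (0 also at an unadjusted p below 0.05 and by DESeq2 and limma-voom), against 0.526% of all genes tested called higher and 0.0163% lower. The call was absent without old control 3, with an adjusted p of 0.0812 and a log2 fold change of 2.14, and stood in the other 7 fits with 1 library left out, with log2 fold changes between 2.10 (old control 1 left out) and 3.13 (old control 2 left out).

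Bmi1 had 71.7, 65.5, 53.9, 52.2 and 84.5 CPM in old Mito-Q HSCs, against 30.7, 45.9 and 26.9 CPM in old control HSCs, with no overlap (log2 fold change 0.93, SE 0.39, adjusted p = 0.41 in edgeR). Suz12 had 35.5, 29.8, 33.3, 35 and 31 CPM in old Mito-Q HSCs, against 26.8, 26.1 and 24.4 CPM in old control HSCs. Its groups did not overlap, although the log2 fold change was only 0.35 (SE 0.39, adjusted p = 0.855 in edgeR). Together with Brpf1, 3 of the 9 regulators lay wholly above the old control libraries, against 3.87% of all genes tested. The same 3 genes lay wholly below the young control libraries in the first comparison. Low values in the shared old control libraries favour both counts, so they are not independent results.

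Ezh1, the PRC2 enzyme of resting cells, had 207, 87, 79.1, 120 and 176 CPM in old Mito-Q HSCs, against 55.4, 82.4 and 72.5 CPM in old control HSCs. Its groups overlapped through old Mito-Q 3 (log2 fold change 0.93, SE 0.39, adjusted p = 0.404 in edgeR). Kdm6b had 50, 57, 42.5, 63 and 17.7 CPM in old Mito-Q HSCs, against 18.1, 18.9 and 19.8 CPM in old control HSCs. In 4 Mito-Q libraries it was at 42.5 CPM or more, and in old Mito-Q 5 it was below all old control libraries (log2 fold change 1.28, SE 0.48, adjusted p = 0.35 in edgeR). With Brpf1 and Bmi1 these were the 4 of 9 regulators higher at an unadjusted p below 0.05, against 5.12% of all genes tested. Of protein-coding genes with more than 6 kb of exon, 8.76% were higher by that limit, and of those with over 3 to 6 kb, 5.8%. Brpf1, Bmi1 and Kdm6b were also among the regulators lower by that limit in the first comparison, which used the same old control libraries.

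The remaining regulators were not called between old Mito-Q and old control HSCs, and their libraries overlapped. Ezh2 averaged 47.9 ± 22.9 CPM in old Mito-Q and 50.3 ± 11.1 CPM in old control HSCs (log2 fold change -0.07, SE 0.46), and Eed 57.3 ± 10.7 and 70.6 ± 16.2 CPM (-0.30, SE 0.40). Asxl1 averaged 43.4 ± 16.6 CPM in old Mito-Q and 36 ± 12 CPM in old control HSCs (0.27, SE 0.40), and Kmt2a 198 ± 88.1 and 144 ± 50.3 CPM (0.46, SE 0.39). Adjusted p-values of these 4 genes were between 0.788 and 0.988 in edgeR.

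In the wider list, 2 genes were called higher in old Mito-Q HSCs, Brpf1 and Jmjd1c, and 0 lower (2 lower at an unadjusted p below 0.05, 1 by DESeq2 and 0 by limma-voom). Of all genes tested, 0.526% were called higher and 0.0163% lower. Without old control 3 Jmjd1c alone of the list was called. Jmjd1c averaged 408 ± 170 CPM in old Mito-Q and 60.9 ± 5.45 CPM in old control HSCs (SD, n = 5 and 3), with a log2 difference of 2.74 (SE 0.37, adjusted p = 6.32e-05 in edgeR). Its lowest Mito-Q library, at 235 CPM, was above its highest old control library, at 65.3 CPM. The other genes called lower with age were not called here, although none overlapped: Kat7 had a log2 fold change of 1.24 (adjusted p = 0.209), Kdm6a 1.25 (0.224), Usp7 1.07 (0.12) and Setd7 1.35 (0.137, all in edgeR). These 4 were picked as low in the same old control libraries, so the choice itself favours a rise here. Of all genes tested, 3.87% lay wholly above the old control libraries. DESeq2 called all 4 higher, with adjusted p-values from 0.0127 to 0.0443, and edgeR called Usp7, Kat7 and Setd7 without young control 3 and young CCCP 3 together (0.0268 to 0.0298). Kat6a, the MOZ acetyltransferase, averaged 104 ± 39.1 CPM in old Mito-Q and 37.1 ± 5.34 CPM in old control HSCs (1.49, adjusted p = 0.119 in edgeR). The median log2 fold change was 0.27 over the 132 genes, 0.69 over the 19 demethylases and -0.12 over all genes. Protein-coding genes with more than 6 kb of exon had a median of 0.15, against -0.37 for those of up to 3 kb. Of the 9 neutrophil markers, 8 had positive log2 fold changes, with a median of 2.40 over the list, and 0 were called. At an unadjusted p below 0.05 in edgeR, 3 of them were higher and 1 lower, against 5.12% and 4.93% of all genes tested.

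The third comparison asked what the uncoupler CCCP did in young mice. Kdm6b (chr11:69398508-69413675, minus strand) measured 11.5, 10.3, 17.3, 8.69 and 15.4 CPM in young CCCP HSCs, against 19.3, 44.6, 79.4 and 48.3 CPM in young control HSCs. All CCCP libraries lay below all young control libraries, though young control 1 came close to the highest of them. The mean fell to 12.6 ± 3.59 CPM in young CCCP HSCs, against 47.9 ± 24.6 CPM in young control HSCs (SD, n = 5 and 4), with a log2 difference of -1.92 (SE 0.43, adjusted p = 0.0235 in edgeR). Of the 9 regulators, Kdm6b was the 1 called lower and 0 were called higher (0 higher also at an unadjusted p below 0.05 and by DESeq2 and limma-voom), against 0.652% of all genes tested called lower and 0.0652% higher. It was also the 1 regulator lower at an unadjusted p below 0.05, against 4.8% of genes, and the 1 without overlap, against 2.89% of genes.

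This call was near the threshold. It was lost without young control 2 (adjusted p = 0.0544), young control 3 (0.106), young control 4 (0.0594), young CCCP 1 (0.0706), young CCCP 2 (0.0692) or young CCCP 4 (0.0748), and held in the other 3 of 9 fits with 1 library left out, all in edgeR. Over these 9 fits its log2 fold change ran from -2.19 to -1.60. Without young control 3 and young CCCP 3 together the log2 fold change was -1.70 and the adjusted p 0.0628. The call was also missed by limma-voom (adjusted p = 0.147), in a fit of these groups alone (0.104) and with the replicate number as a block (log2 fold change -1.74, adjusted p = 0.141). What the replicate number stands for is not stated in the labels.

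Among the PRC2 genes, Ezh2 had 44.7, 54.9, 191, 57.9 and 50.7 CPM in young CCCP HSCs, against 55.7, 52.4, 49.8 and 55.7 CPM in young control HSCs. A single library, young CCCP 3, was far above the others, and without it the log2 fold change of 0.58 (SE 0.42) became -0.04. Suz12 had 30, 36.6, 64.5, 26.7 and 27.2 CPM in young CCCP HSCs, against 35, 46.9, 81.8 and 44.3 CPM in young control HSCs (log2 fold change -0.49, SE 0.35). Here too the highest values came from the libraries that stood apart, young CCCP 3 and young control 3. In Eed the same CCCP library was the lowest, at 18.3 CPM, against 48.7 to 97.7 CPM in the other CCCP libraries and 39.7 to 94.9 CPM in young control HSCs (-0.16, SE 0.37).

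Brpf1, low in old control HSCs, had 57.5, 64.4, 41.8, 40.7 and 53.9 CPM in young CCCP HSCs, against 53.1, 31.5, 49.8 and 43.6 CPM in young control HSCs, and the groups overlapped (log2 fold change 0.22, SE 0.35). Bmi1 averaged 59.5 ± 28.2 CPM in young CCCP and 84.8 ± 21.1 CPM in young control HSCs (-0.51, SE 0.34), Ezh1 115 ± 52.5 and 91.2 ± 21.8 CPM (0.33, SE 0.34). Asxl1 averaged 73.2 ± 16.7 CPM in young CCCP and 71.9 ± 31.9 CPM in young control HSCs (0.03, SE 0.36), and Kmt2a 256 ± 110 and 263 ± 126 CPM (-0.04, SE 0.35). Adjusted p-values of the 8 regulators not called ranged from 0.629 to 0.989 in edgeR. In the wider list the genes called lower were Kdm6b and Jmjd1c, and 0 were called higher (9 higher at an unadjusted p below 0.05, 1 by DESeq2 and 0 by limma-voom). Of all genes tested, 0.652% were called lower and 0.0652% higher. Jmjd1c averaged 121 ± 23.1 CPM in young CCCP and 470 ± 196 CPM in young control HSCs (log2 fold change -1.96, SE 0.30, adjusted p = 0.000322 in edgeR), and stayed called in all 9 fits with 1 library left out. The median over the 132 genes was 0.06, against 0.21 over all genes tested.

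Markers of other cells also differed between the CCCP and control libraries. Of the 9 neutrophil markers, 8 were higher in young CCCP HSCs at an unadjusted p below 0.05, against 6.35% of all genes tested, and 1 was called. This was the neutrophil elastase gene Elane, with 432 ± 275 CPM in young CCCP and 2.35 ± 1.02 CPM in young control HSCs (log2 fold change 7.50, adjusted p = 0.0235 in edgeR). The sum of 7 erythroid genes averaged 604 ± 495 CPM in young CCCP and 166 ± 79.7 CPM in young control HSCs, with overlap. All 7 had positive log2 fold changes, 3 with an unadjusted p below 0.05, and 0 were called.

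Kdm6b is known as a gene induced within hours in stimulated macrophages, and immediate early transcripts differed between the same groups. The sum of 14 immediate early genes, among them Fos and Egr1, was 15080 to 27307 CPM in old Mito-Q, 1051 to 1773 CPM in old control, 390 to 742 CPM in young CCCP and 8199 to 14482 CPM in young control libraries. No 2 groups overlapped. In young CCCP versus young control HSCs 13 of the 14 were called lower, against 0.652% of all genes tested. In the controls, old versus young, 12 were called lower, against 1.17% of all genes. In old Mito-Q versus old control HSCs 13 were called higher, against 0.526% of all genes. Fos averaged 4772 ± 1205 CPM in old Mito-Q, 51 ± 6.98 CPM in old control, 15 ± 11.7 CPM in young CCCP and 1952 ± 396 CPM in young control HSCs, and Egr1 2078 ± 234, 120 ± 15.4, 41.2 ± 17.5 and 1330 ± 354 CPM in the same order.

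Single libraries departed from this order of the groups. Old Mito-Q 5 had 17.7 CPM of Kdm6b beside an immediate early sum of 22038 CPM, and young control 1 had 19.3 CPM beside 13795 CPM. Old control libraries, with an intermediate sum, had 18.1 to 19.8 CPM of Kdm6b. The libraries fall into clusters by group, so no correlation of Kdm6b with this sum is given, and the part of the immediate early difference in the Kdm6b difference was not tested. Brpf1 did not follow this order in the young groups: it averaged 51.7 ± 10.2 CPM in young CCCP HSCs, where the sum was lowest, and 44.5 ± 9.51 CPM in young control HSCs. In the old groups it was higher where the sum was higher, with 58.4 ± 13.4 CPM in old Mito-Q and 11.1 ± 7.38 CPM in old control HSCs. The part of the immediate early difference in these Brpf1 values was not tested.

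**Figure D4:**
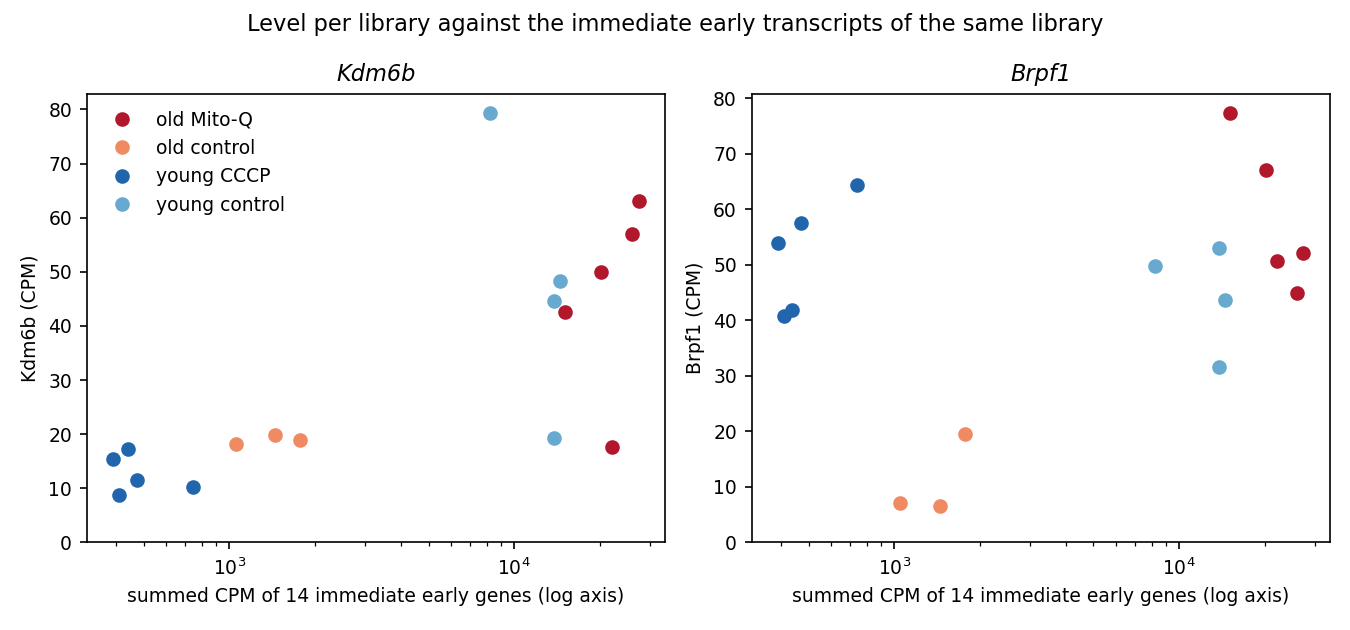
Level of Kdm6b (left) and Brpf1 (right) in each library (CPM, vertical) against the summed level of 14 immediate early genes (CPM, horizontal, log axis). Points are libraries, coloured by group. The 5 young CCCP libraries lie at the lowest sums, 390 to 742 CPM, with Kdm6b of 8.69 to 17.3 CPM and Brpf1 of 40.7 to 64.4 CPM.

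The fourth comparison set old Mito-Q HSCs against young control HSCs, groups that differ in both age and treatment, whose effects cannot be told apart here. None of the 9 regulators was called by edgeR's quasi-likelihood test, DESeq2 or limma-voom, and none had an unadjusted p below 0.05 in edgeR. In all genes tested, 0.13% were called higher and 0.0122% lower, with the markers Prtn3 (log2 fold change 1.60) and Slamf1 among the higher and Flt3 (-3.19) among the lower. All 9 neutrophil markers had positive log2 fold changes, from 1.60 to 6.98 with a median of 3.40. Of these, 8 were higher at an unadjusted p below 0.05 in edgeR, against 3.8% of all genes tested. Brpf1 averaged 58.4 ± 13.4 CPM in old Mito-Q and 44.5 ± 9.51 CPM in young control HSCs (log2 fold change 0.39, SE 0.35), and Kdm6b 46 ± 17.6 and 47.9 ± 24.6 CPM (-0.06, SE 0.42). The lowest unadjusted p-values were those of Asxl1, 43.4 ± 16.6 CPM in old Mito-Q and 71.9 ± 31.9 CPM in young control HSCs (-0.73, SE 0.36, adjusted p = 0.641 in edgeR), and Suz12, 32.9 ± 2.49 and 52 ± 20.5 CPM (-0.66, SE 0.35, adjusted p = 0.69 in edgeR). Of the wider list 0 genes were called by edgeR and limma-voom and 1 by DESeq2, with 3 higher and 5 lower at an unadjusted p below 0.05 in edgeR, and Jmjd1c averaged 408 ± 170 CPM in old Mito-Q and 470 ± 196 CPM in young control HSCs. With standard errors of 0.34 to 0.42 for the regulators, differences of this size were not detectable, which does not show that the groups were alike.

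The balance of the alternative PRC2 enzymes spread widely within groups. Per kilobase, the ratio of Ezh1 to Ezh2 was 3.82, 2.07, 0.898, 1.89 and 9.18 in the old Mito-Q libraries, 1.18, 1.62 and 1.03 in old control, 1.07, 3.19, 0.565, 1.36 and 2.08 in young CCCP and 1.1, 1.55, 2.18 and 1.38 in young control libraries. A ratio under 1, with Ezh2 the higher, occurred in old Mito-Q 3 and young CCCP 3. The extremes of 9.18 and 0.565 came from the lowest Ezh2 value, 17.2 CPM in old Mito-Q 5, and the highest, 191 CPM in young CCCP 3.

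The genes whose log2 CPM over the 17 libraries was most like that of a called regulator were sought among 8602 protein-coding genes with an average log2 CPM above 4. For Brpf1 they were Arfgef1 (Pearson r = 0.88), Trip12 (0.86) and Ahctf1 (0.85), where the median r over all genes compared was 0.05. Arfgef1, an exchange factor for ARF proteins, averaged 108 ± 26.7 CPM in old Mito-Q, 39.8 ± 9.64 CPM in old control, 102 ± 37.2 CPM in young CCCP and 105 ± 19 CPM in young control HSCs. For Kdm6b they were Pabpc1 (0.92), Fosb (0.89) and Arl5b (0.87), with a median r of -0.01. Fosb, an AP-1 subunit and 1 of the 14 immediate early genes, averaged 729 ± 256, 32.9 ± 20.3, 3.99 ± 3.06 and 920 ± 454 CPM in the same groups, and Arl5b 64.2 ± 23.8, 17.3 ± 3.37, 21.4 ± 7.89 and 79 ± 18.1 CPM. These r values describe libraries that share group, depth and quality, and carry no test. Among the 9 regulators themselves the highest r were 0.67 between Suz12 and Kmt2a and 0.63 between Bmi1 and Brpf1, and the lowest was -0.48 between Ezh2 and Eed.

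Known targets of Polycomb and MLL proteins in HSCs, a list of 13 genes of which 11 were tested, gave 0 calls in all 4 comparisons by edgeR, limma-voom and DESeq2, except for 2 genes called higher by DESeq2 in old control versus young control HSCs. At an unadjusted p below 0.05, and named after their values were seen, were Cdkn1c and Hoxa7, both higher in old control than in young control HSCs, Hoxa7, lower in old Mito-Q than in old control HSCs, Hoxa5 and Hoxa10, lower in young CCCP than in young control HSCs, and Cdkn1c, higher in old Mito-Q than in young control HSCs. In these directions the 11 genes gave 2, 1, 2 and 1, where 6.77%, 4.93%, 4.8% and 3.8% of all genes tested passed the same limit. Cdkn1c, an inhibitor of the cell cycle, averaged 42.6 ± 9.01 CPM in old control and 20.8 ± 1.25 CPM in young control HSCs (log2 fold change 1.03, adjusted p = 0.247 in edgeR). Cdkn2a, the locus that BMI1 represses, was at 0 counts in all 8 libraries of old mice, where 3 counts correspond to between 0.357 and 0.571 CPM, and reached at most 5 counts, in young control 4. Meis1, an MLL target, averaged 498 ± 27.7 CPM in old Mito-Q, 439 ± 79.9 CPM in old control, 564 ± 115 CPM in young CCCP and 594 ± 100 CPM in young control HSCs, and Mecom 215 ± 78.6, 142 ± 27.8, 214 ± 73.9 and 238 ± 86 CPM.

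Counting could touch these genes at their overlaps. Antisense or other opposite-strand loci share between 2.27% and 6.82% of the exon bases of Ezh2, Eed, Suz12, Asxl1, Kdm6b, Kmt2a and Brpf1, and none of those of Bmi1 and Ezh1. The partner of Brpf1, Gm15492, held 57 counts over all libraries, and that of Kdm6b, Kdm6bos, held 72. The strand setting of the count is not given in the sources used here.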

How the data were processed

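Sorted HSC RNA was sequenced in 17 libraries with a reduced-volume Nextera XT protocol. Per the submitters' processing notes, reads were trimmed with Trim Galore and aligned with STAR 2.7 to GRCm38. The authors deposited whole-number counts by Ensembl gene, 1 file a library. What counted them, with which annotation and strand setting, is not given in the sources used here. Rows for reads assigned to no gene were kept out of totals and tests, and 54809 of 54838 gene IDs matched GENCODE M21.

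The edgeR 4.0.16 model (R 4.3.3) held the 4 groups. It used TMM scaling, a minimum count of 10 in filterByExpr, and the robust quasi-likelihood F-test, two-sided, with Benjamini-Hochberg adjustment over 24523 genes and no covariate. CPM values use the TMM scaling. Standard errors were taken as the absolute log2 fold change divided by the square root of F. A count of 3, the floor used, corresponds to 0.298 to 0.653 CPM, and covers counting error only, since the labels name no molecular tags to tell PCR copies apart. No 2 libraries of a group were duplicates (chi-square over its degrees of freedom 13.1 or more). The procedure was tested on simulated data.

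Named were all 9 regulators, from every other list the genes called in any comparison and the 2 of highest mean CPM, and for each called regulator the 3 genes of highest Pearson r. Cdkn2a, Cdkn1c and the Hox genes were named after their values were seen. The members and lists were chosen with earlier results of these data known. Promoters came from RefSeq (GRCm38.p6), which matched 8 of the 9 genes. Alternatives were other scalings and filters, DESeq2 1.42.0, limma-voom (limma 3.58.1), fits of the compared groups alone, the unassigned share as a covariate, a replicate block, and leaving out libraries.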

Additional observations from a re-analysis of the deposited data

Results flagged for a closer look

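In 27 sets of values, each 1 regulator in 1 group of 4 or 5 libraries, the highest or lowest library was compared with the rest, and 3 stood far from their group. Chance would pick out about 1 in 20 groups if values were independent and normally distributed. Whether these CPM values meet that condition was not tested. Ezh2 had 191 CPM in young CCCP 3, against at most 57.9 CPM in the other young CCCP libraries. Suz12 had 64.5 CPM in the same library, against at most 36.6 CPM in the other young CCCP libraries. Kmt2a had 452 CPM in young control 3, against at most 210 CPM in the other young control libraries. Both libraries are among those with the lowest correlation to the rest.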

How the results depend on the processing

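The 9 regulators were refitted under 11 other settings and with each library left out. Of 693 fold changes, most of them of values not called, 639 kept their direction and side of the threshold. Of the others, 15 called values were no longer called and 1 became called (Bmi1 in old control versus young control by DESeq2). A further 38 uncalled values changed sign, and 0 called values did. Brpf1 in old control versus young control was called in 9 of 11 other settings and 5 of 7 fits with 1 library left out. In old Mito-Q versus old control Brpf1 was called in 11 of 11 and 7 of 8. Kdm6b in young CCCP versus young control was called in 7 of 11 and 3 of 9. In old control versus young control the median over all genes was 0.16 with TMM and at most 0.28 under another scaling (upper-quartile factors), where 190 genes were called higher and 237 lower, against 128 and 287 with TMM factors.

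In old control versus young control, regulators, wider-list genes and all genes called were 1, 6 and 415. DESeq2 gave 2, 13 and 1263, limma-voom 0 and 2 of the first 2 counts, the fit of these groups alone 0, 2 and 186, and leaving out young control 3 and young CCCP 3 together 13 wider-list genes and 1271 genes. In old Mito-Q versus old control, with 1, 2 and 133, DESeq2 gave 9 wider-list genes and 441 genes, and leaving out those libraries gave 7 and 341. In young CCCP versus young control, with 1, 2 and 176, limma-voom gave 0 regulators and 1 wider-list gene, the fit of these groups alone 0, 1 and 111, leaving out those libraries 0 and 1, DESeq2 559 genes and no filter 324 genes. In old Mito-Q versus young control, with 0, 0 and 35, DESeq2 gave 1 wider-list gene and 186 genes, limma-voom 57 genes, no filter 90 and leaving out those libraries 68.

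With 1 library left out, regulators called ranged from 0 to 1 in old control versus young control, wider-list genes from 1 to 8 and all genes from 125 to 684. The balance turned with 1 library, since without old control 1 calls higher came to 404 and calls lower to 280. In old Mito-Q versus old control the ranges were 0 to 1, 1 to 2 and 79 to 142, in young CCCP versus young control 0 to 1, 1 to 2 and 129 to 185, and in old Mito-Q versus young control 0 to 0, 0 to 0 and 14 to 34. Fits with fewer old control libraries tested more genes. The cause of the other changes was not tested.

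Groups share replicate numbers, and deviations of same-numbered libraries correlated between -0.11 and 0.12. The labels do not say what the number means, and low correlations cannot show that same-numbered libraries were unrelated. With the replicate block 0 regulators and 1 wider-list gene were called in young CCCP versus young control, where Kdm6b had an adjusted p of 0.141, and the block moved no other count of calls by more than 1.5 times. The 3 old control libraries and raw counts as low as 37 for a regulator limit what small differences can be shown.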
